A study of Mus musculus with 8 samples.

Results

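Cd300lf, Ndufb2, Wapl, Focad, Alpk2, Paip2 and Fam81a are 7 mouse genes whose RNA was abundant in serum vesicles of control mice and lower in serum vesicles of mice carrying either of 2 canine osteosarcoma lines. They were chosen by name for that pattern, out of 31300 mouse genes in a table of 52016 genes that also holds 20716 canine genes. The values that chose them, their high level in the control libraries and their lower level in the tumour groups, are therefore given below as a description with no test. No threshold on the size of the fall was stated for the choice.

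Total RNA of exosomes enriched from mouse serum was sequenced in 8 libraries, 2 in each of 4 groups of NCr nu/nu mice. This nude strain lacks a thymus and so most T cells, which lets cells of another species grow in it, and all groups share that background. Groups OSCA-40 and OSCA-32 received 100000 cells of the canine osteosarcoma line of that name in the tibia and were bled at necropsy, labelled week 8. The PBS group received 10 µl of saline in the tibia in place of tumour cells and was bled at the same time. The week 0 group is serum of all mice before injection. Serum was pooled within each group, and whether the 2 libraries of a group hold different animals is not labelled. Errors and p-values may thus reflect technical spread alone. Each tumour group stands for 1 cell line.

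Serum vesicles carry RNA from blood cells, the vessel lining, the liver and other organs, and in these mice also from the canine graft. A lower level in vesicles can come with fewer contributing cells, fewer vesicles or less RNA per cell or vesicle, which cannot be told apart here. The 7 genes belong to no single pathway. Cd300lf encodes a receptor of myeloid cells that can restrain their activation and is the entry receptor of murine norovirus. Ndufb2 is an accessory subunit of mitochondrial respiratory complex I. Wapl releases the cohesin ring from chromatin. Focad encodes focadhesin, known in humans to stabilise the SKI complex, which feeds mRNA into the cytoplasmic exosome for decay. Alpk2 is an atypical alpha-kinase. Paip2 binds the poly(A)-binding protein and represses translation. Fam81a encodes a coiled-coil protein.

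Wapl and Focad, the most abundant members, share a stretch of sequence, shown here because it ties these otherwise unrelated genes to each other and to a further serum RNA described below. The stretch is the first exon of a short non-coding transcript of each gene in GENCODE M21 (GRCm38), Wapl-206 of 382 bases and Focad-206 of 558 bases. The exon of Wapl-206 lies at chr14:34709080-34709241 on the plus strand, 162 bases long. The exon of Focad-206 lies at chr4:88287635-88287782 on the plus strand, 148 bases long. Both lie inside introns of the coding transcripts and overlap no annotated coding sequence or UTR. The exact run of 40 bases that they share is in capitals.
Wapl-206: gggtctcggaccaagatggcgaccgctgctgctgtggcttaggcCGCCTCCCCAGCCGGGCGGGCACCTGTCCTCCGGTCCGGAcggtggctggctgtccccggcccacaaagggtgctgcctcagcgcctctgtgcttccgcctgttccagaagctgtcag
Focad-206: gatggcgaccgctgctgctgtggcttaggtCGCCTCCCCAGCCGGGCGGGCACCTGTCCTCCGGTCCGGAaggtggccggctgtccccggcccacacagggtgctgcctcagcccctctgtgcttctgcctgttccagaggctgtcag

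The table calls its values counts, but every library has nearly the same total over mouse and dog, so depth is unknown. Across 31171 mouse genes, which are not independent replicates, the PBS value had a Spearman correlation of 0.0394 with the median length of a gene's transcripts. Levels are set side by side between genes below on the assumption that the values are per length, which the table does not state. Mouse genes made up 31.6% and 29.3% of the total in the OSCA-40 libraries, 55.3% and 56.7% in OSCA-32, 85.3% and 84.8% in PBS and 83.9% and 82.6% at week 0. As deposited, the median mouse gene differed by -1.51 on the log2 scale in OSCA-40 against PBS and by -0.55 in OSCA-32 against PBS. Values called scaled below were put on the bulk of mouse genes with a trimmed mean of log ratios, which brought these medians to -0.02 and 0.01. The members together made up 0.111% and 0.130% of the mouse total in the OSCA-40 libraries, 0.191% and 0.211% in OSCA-32, 0.425% and 0.43% in PBS and 0.326% and 0.326% at week 0. Their share of the mouse RNA was thus lowest in OSCA-40, next in OSCA-32 and highest in PBS, with no overlap between groups. The members were chosen for a fall in both lines, so this is a description only.

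Cd300lf (ENSMUSG00000047798, chr11:115116214-115133992, minus strand) had deposited values of 4 and 4 in OSCA-40, 8 and 9 in OSCA-32, 122 and 124 in PBS and 115 and 114 at week 0. The tumour libraries sat far below all 4 control libraries, and the controls lay close together. Scaled, Cd300lf was at 8.54 ± 0.397 in OSCA-40, 8.57 ± 0.518 in OSCA-32, 82.3 ± 0.293 in PBS and 79.5 ± 1.51 at week 0 (SD, n = 2 each). Both lines thus held 10.4% of the PBS level, the lowest share among the members. The difference was -3.13 in OSCA-40 and -3.12 in OSCA-32 on the log2(scaled value + 1) scale. Since the tumour values are small whole numbers, rounding limits how closely the lines can be compared. In OSCA-40 both deposited values were 4, so the SD there reflects the scaling alone. Both lines are set against the same PBS libraries here and below, so their falls are not independent of each other.

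Ndufb2 (ENSMUSG00000002416, chr6:39592574-39603382, plus strand) had deposited values of 34 and 28 in OSCA-40, 74 and 71 in OSCA-32, 468 and 541 in PBS and 318 and 317 at week 0. Scaled, it held 19.5% of the PBS level in OSCA-40 and 21.7% in OSCA-32. As with Cd300lf, the 2 lines came to nearly the same level once scaled, 66.0 ± 5.98 in OSCA-40 and 73.2 ± 3.81 in OSCA-32 (SD, n = 2 each). Against week 0 the scaled share was 29.9% in OSCA-40 and 33.2% in OSCA-32, since week 0 lay below PBS.

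Wapl (ENSMUSG00000041408, chr14:34673928-34747983, plus strand) had the highest level of the 7 genes, with deposited values of 72 and 83 in OSCA-40, 328 and 374 in OSCA-32, 1179 and 1112 in PBS and 709 and 671 at week 0. As deposited, the 4 groups formed separate steps with no overlap. The median mouse gene as deposited also fell from PBS to OSCA-32 and further to OSCA-40. The share of all genes with such steps was not counted. Scaled, Wapl held 21.6% of the PBS level in OSCA-40 and 46.1% in OSCA-32. Against week 0 it held 34.6% in OSCA-40 and 73.8% in OSCA-32.

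Focad (ENSMUSG00000038368, chr4:88094629-88411011, plus strand) had the same order of groups, with deposited values of 113 and 129 in OSCA-40, 322 and 385 in OSCA-32, 967 and 982 in PBS and 710 and 697 at week 0. Scaled, 39.7% of the PBS level was left in OSCA-40 and 54.6% in OSCA-32. Its fall was thus shallower than that of Wapl in OSCA-40.

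Paip2 (ENSMUSG00000037058, chr18:35598617-35617187, plus strand) had deposited values of 15 and 20 in OSCA-40, 94 and 99 in OSCA-32, 196 and 210 in PBS and 170 and 196 at week 0. Scaled, it held 27.6% of the PBS level in OSCA-40 but 71.6% in OSCA-32. The scaled OSCA-32 values of 96.3 and 98.3 stood below the PBS values of 133 and 139 by -0.48 on the log2 scale, the smallest fall of any member in that line. Paip2 also had the widest spread within a group, the higher OSCA-40 library being 1.33 times the lower.

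Alpk2 (ENSMUSG00000032845, chr18:65265529-65394066, minus strand) was the least abundant member, with deposited values of 12 and 10 in OSCA-40, 31 and 31 in OSCA-32, 93 and 100 in PBS and 86 and 84 at week 0. Scaled, it held 36.2% of the PBS level in OSCA-40 and 48.4% in OSCA-32. Fam81a (ENSMUSG00000032224, chr9:70088511-70142560, minus strand) had deposited values of 95 and 102 in OSCA-40, 182 and 209 in OSCA-32, 519 and 492 in PBS and 566 and 553 at week 0. It had the mildest scaled fall in OSCA-40, with 62.2% of the PBS level left there and 58.2% in OSCA-32. Fam81a was the one member that stood higher at week 0 than in PBS.

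**Figure D1:**
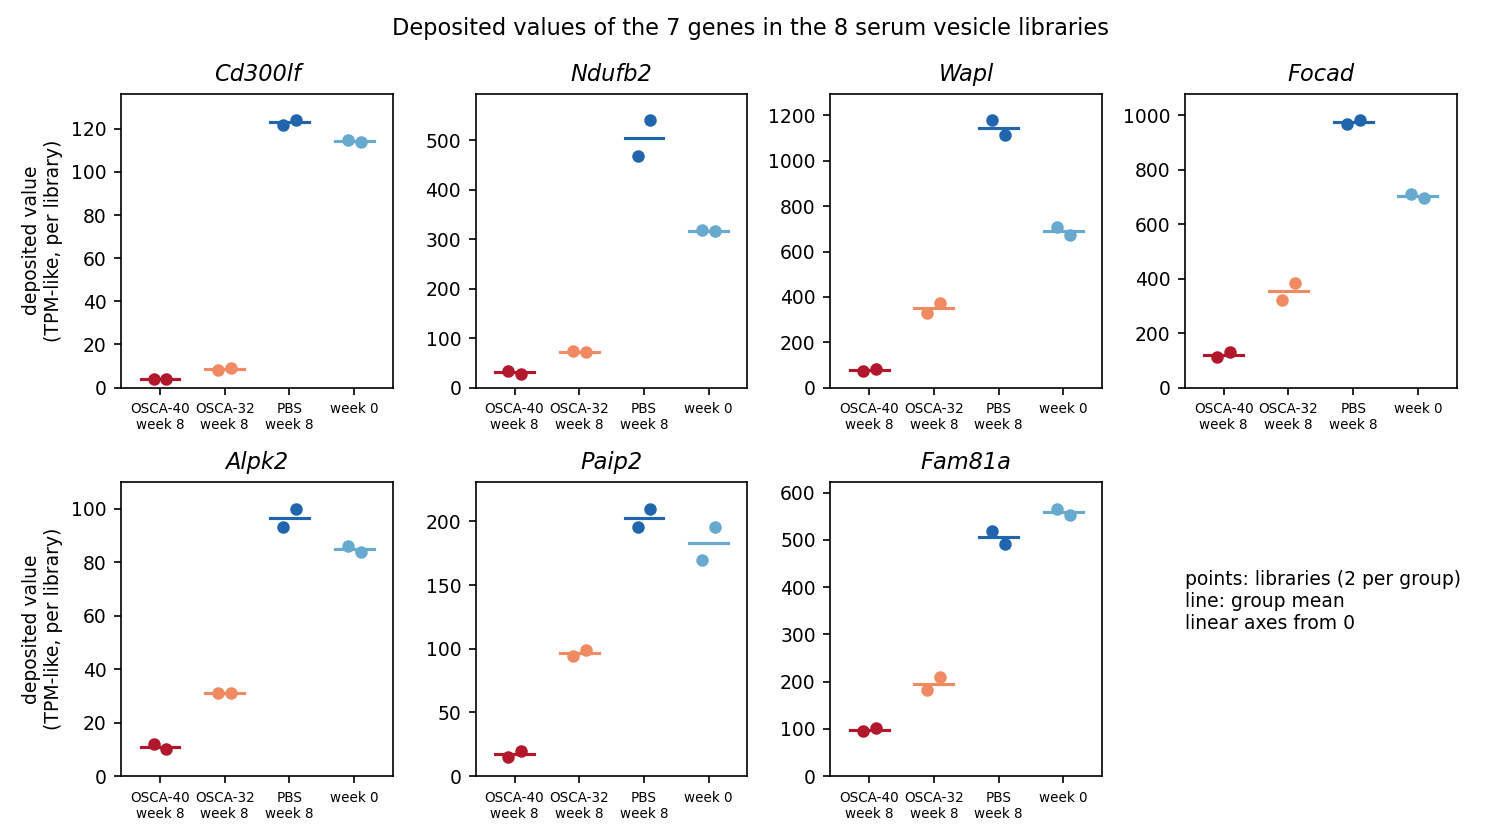
Deposited value (vertical axis, linear from 0, unit of the table) of each of the 7 genes in the 8 libraries, by group; points are libraries and lines are means of 2. As deposited, every OSCA-40 library lies below every OSCA-32 library, and every OSCA-32 library below every PBS and week 0 library. The median mouse gene as deposited also differed from PBS, by -1.51 in OSCA-40 and -0.55 in OSCA-32. After scaling, the 2 tumour lines overlap for Cd300lf and Fam81a. The share of all genes with this order was not counted.

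The depth of the fall varied widely among the members and with the scaling. As deposited, between 3.25% (Cd300lf) and 19.5% (Fam81a) of the PBS level was left in OSCA-40, and between 6.91% (Cd300lf) and 47.5% (Paip2) in OSCA-32. Scaled, the range was 10.4% (Cd300lf) to 62.2% (Fam81a) in OSCA-40 and 10.4% (Cd300lf) to 71.6% (Paip2) in OSCA-32. The median scaled difference of the members was -1.85 in OSCA-40 and -1.02 in OSCA-32, beside medians over all 7655 tested mouse genes of -0.02 and 0.01. Against PBS at the 0.05 threshold, 175 of the 7872 genes tested were lower in OSCA-40 (2.22%) and 14 in OSCA-32 (0.178%), while 372 were higher in OSCA-40 (4.73%) and 74 in OSCA-32 (0.94%).

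**Figure D2:**
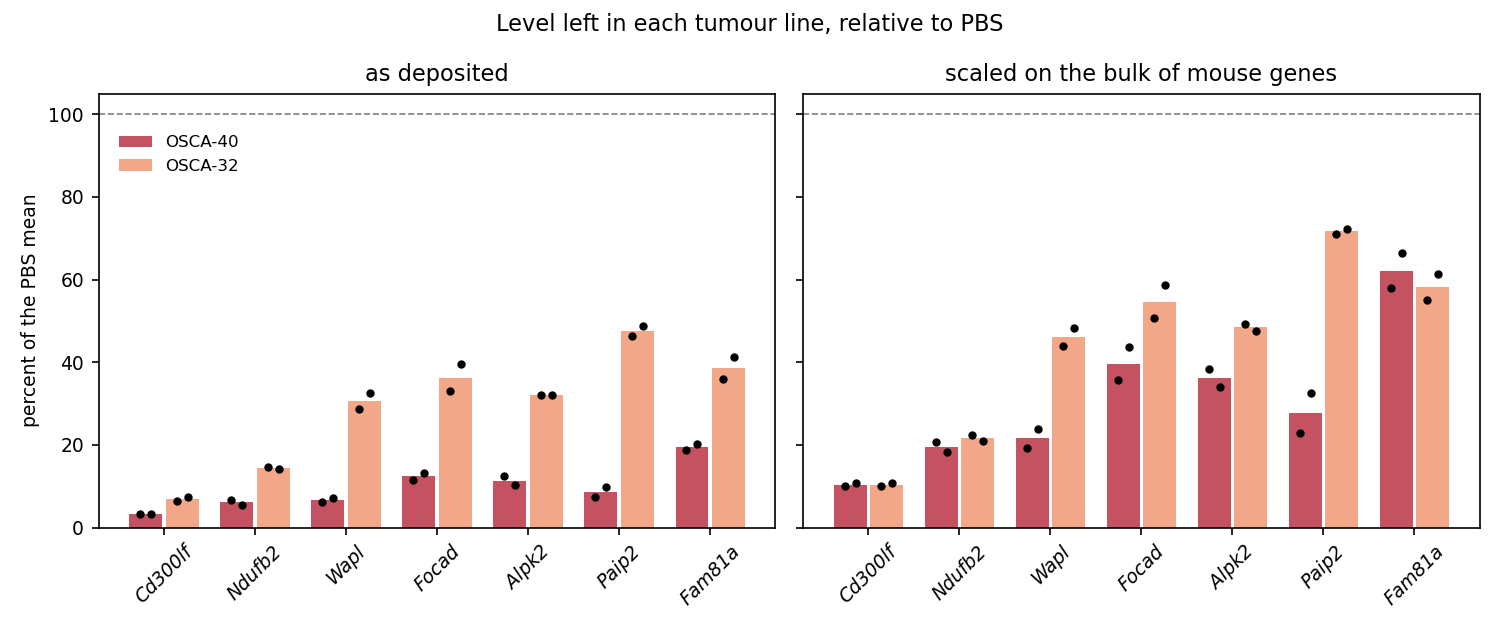
Level of each gene in OSCA-40 and OSCA-32 as a percent of the PBS mean (vertical axis, from 0), as deposited at left and scaled on the bulk of mouse genes at right; bars are means of 2 libraries and points are libraries. Scaling brings the lines to the same level for Cd300lf (10.4% in each) and leaves them apart for Paip2 (27.6% in OSCA-40 and 71.6% in OSCA-32). For Cd300lf the deposited tumour values are small whole numbers from 4 to 9, so rounding limits that comparison.

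Falls of at least this size were not limited to the 7 genes. Of 534 tested mouse genes with a mean PBS value of at least 96.5, the lowest among the members, 22 had scaled differences at or below -0.48 in OSCA-32 and -0.69 in OSCA-40, the smallest falls among the members. The 15 that are not members include the predicted gene Gm44060, with differences of -4.38 in OSCA-40 and -2.08 in OSCA-32, and the collagen receptor Ddr2, with -0.86 in OSCA-40 and -0.92 in OSCA-32. They also include the ubiquitin ligase gene Herc3, with -1.36 in OSCA-40 and -0.48 in OSCA-32. Gm44060, Ddr2 and Herc3 were chosen for mention after their values were seen.

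Whether the fall differed between the tumour lines was tested in OSCA-40 against OSCA-32. Wapl and Paip2 were lower in OSCA-40 than in OSCA-32 after scaling, while the other members did not pass the test. Wapl was at 166 ± 24.3 in OSCA-40 and 354 ± 24.7 in OSCA-32 (SD, n = 2 each), a log2 difference of -1.09 ± 0.11 (SE, limma adjusted p = 0.00461). Paip2 was at 37.5 ± 9.28 in OSCA-40 and 97.3 ± 1.35 in OSCA-32 (SD, n = 2 each), a log2 difference of -1.37 ± 0.16 (SE, limma adjusted p = 0.00717). Both OSCA-40 libraries were below both OSCA-32 libraries for each gene, and how many of all genes separate in this way was not counted. Of all 7872 genes tested, 76 were lower in OSCA-40 (0.965%). The 2 of 7 members cannot be weighed against that share. The members were chosen for a fall in both lines, which uses these same libraries, and for a high control level that most tested genes lack. Another 139 genes were higher there (1.77%), which makes 215 called in all (2.73%).

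Focad and Alpk2 leaned the same way without passing, with differences of -0.46 ± 0.11 (SE, limma adjusted p = 0.088) for Focad and -0.40 ± 0.11 (SE, limma adjusted p = 0.133) for Alpk2. Ndufb2 differed by -0.15 ± 0.10 (SE, limma adjusted p = 0.521). For Cd300lf the difference was -0.00 ± 0.13 (SE, limma adjusted p = 0.997), and for Fam81a it was 0.09 ± 0.09 (SE, limma adjusted p = 0.687). As deposited, every member was lower in OSCA-40, but so was the median mouse gene, by -0.95. Fam81a shows the effect of scaling most plainly, since its deposited difference of -0.98 turned to 0.09 when scaled, and it was -0.11 as a share of the mouse total. The call of Paip2 was lost without either OSCA-32 library (limma adjusted p = 0.0509 without replicate 1 and 0.0593 without replicate 2). The call of Wapl was kept without each library in turn and lost when the variance was given no trend on the level (limma adjusted p = 0.0542).

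The control groups were compared to see whether the levels differed between them without a tumour. They differ in time, in the saline injection and in the animals, since week 0 is serum of all mice. These differences cannot be told apart here. Wapl, Ndufb2 and Focad stood higher in PBS than at week 0, but none passed the test. Wapl was at 767 ± 43.3 scaled in PBS and 479 ± 24.8 at week 0 (SD, n = 2 each), a log2 difference of 0.68 ± 0.11 (SE, limma adjusted p = 0.153). Ndufb2 was at 337 ± 29.5 in PBS and 220 ± 3.32 at week 0, a log2 difference of 0.61 ± 0.10 (SE, limma adjusted p = 0.153). Focad was at 652 ± 2.72 in PBS and 489 ± 12.7 at week 0, a log2 difference of 0.42 ± 0.11 (SE, limma adjusted p = 0.643). In each of these 3 genes both PBS libraries were above both week 0 libraries. How many of all tested genes separate in this way was not counted, so this describes the values only.

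The remaining members moved less between the controls, by 0.13 for Alpk2, 0.10 for Paip2, 0.05 for Cd300lf and -0.20 for Fam81a. By limma, 0 of 7 members were called, while 13 of the 7872 genes tested were called (0.165%), 5 of them higher in PBS (0.0635%) and 8 lower (0.102%). The unadjusted limma p was under 0.05 for 3 members, and how many of all genes had such a p was not counted. With genes under a mean of 50 left out, Wapl (limma adjusted p = 0.0308) and Ndufb2 (limma adjusted p = 0.0349) passed. The choice of genes high in the controls touches this comparison too, since it shares the PBS and week 0 libraries.

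**Figure D3:**
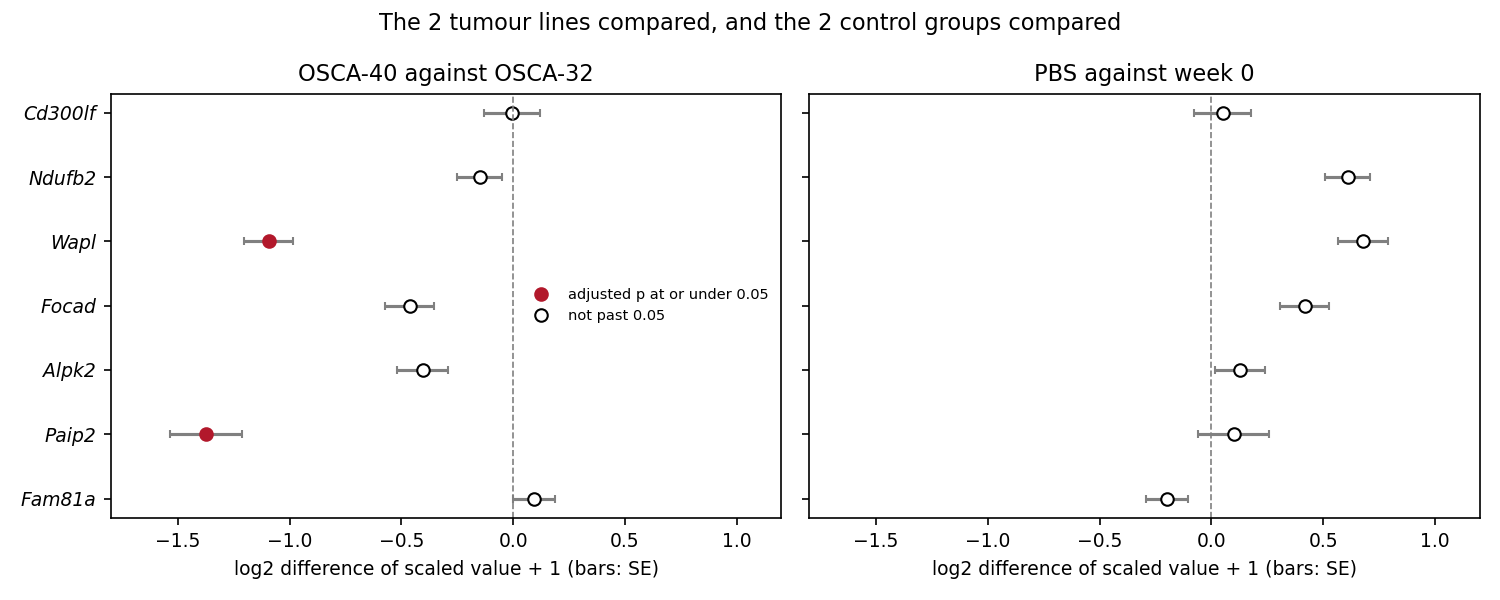
Log2 difference of scaled value + 1 (horizontal axis) for each gene, OSCA-40 against OSCA-32 at left and PBS against week 0 at right; points are estimates from the fit over all 8 libraries, bars are SE, and filled points passed the adjusted 0.05 threshold. Wapl (-1.09) and Paip2 (-1.37) are filled at left, and no point is filled at right.

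The members were chosen for a high level in the controls, so their place above other genes in PBS describes the choice and is no finding. In PBS, the median tested mouse gene was at 15.5, while Wapl at 1146 ranked 62nd of all mouse genes, Focad at 974.5 ranked 72nd and Fam81a at 505.5 ranked 117th. Ndufb2 at 504.5 ranked 119th, Paip2 at 203 ranked 265th, Cd300lf at 123 ranked 422nd and Alpk2 at 96.5 ranked 531st. The pathway lists were chosen with the members' behaviour known, and the members are left out of the counts that follow.

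Beside Wapl stand cohesin and its regulators. The highest of 22 was the cohesin subunit Stag2, with a mean of 117 in PBS, and the list's median was 4.75, so that Wapl was 9.79 times the highest. Stag2 had deposited values of 55 and 48 in OSCA-40, 115 and 87 in OSCA-32, 106 and 128 in PBS and 130 and 142 at week 0. Its scaled difference from PBS was 0.49 ± 0.16 in OSCA-40 (SE, limma adjusted p = 0.135) and 0.37 ± 0.16 in OSCA-32 (SE, limma adjusted p = 0.491), both positive where those of Wapl were negative. The median scaled difference of the 10 tested list members was 0.09 in OSCA-40 and 0.15 in OSCA-32.

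Ndufb2 stands among the subunits of complex I. The highest of 35 other nuclear-encoded subunits was Ndufab1, the mitochondrial acyl carrier protein, at a mean of 144 in PBS, and the list's median was 6, so that Ndufb2 was 3.50 times the highest. Ndufab1 differed from PBS by 0.00 ± 0.37 in OSCA-40 (SE, limma adjusted p = 0.997) and by -0.08 ± 0.37 in OSCA-32 (SE, limma adjusted p = 0.969). Ndufs7, a core subunit that carries an iron-sulfur cluster, was the only list gene to pass a test against PBS. Its deposited values were 17 and 13 in OSCA-40, 53 and 36 in OSCA-32, 86 and 96 in PBS and 96 and 108 at week 0. Ndufs7 fell in OSCA-40 by a scaled log2 difference of -0.92 ± 0.20 (SE, limma adjusted p = 0.0418), and in OSCA-32 it differed by -0.46 ± 0.20 (SE, limma adjusted p = 0.515). The OSCA-40 call held in 2 of the 8 fits that each left out 1 library, where its adjusted p ran between 0.0159 and 0.201 by limma.

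The CD300 family and its signalling partners, 16 genes beside Cd300lf, had a median of 5.5 in PBS. The highest was Cd300a, an inhibitory receptor of myeloid and mast cells, with deposited values of 6 and 6 in OSCA-40, 22 and 19 in OSCA-32, 25 and 30 in PBS and 25 and 27 at week 0. Scaled, Cd300a differed from PBS by -0.49 ± 0.17 in OSCA-40 (SE, limma adjusted p = 0.167) and by 0.16 ± 0.17 in OSCA-32 (SE, limma adjusted p = 0.827). None of the 6 tested genes of this list passed in either line, and their median difference was 0.37 in OSCA-40 and 0.12 in OSCA-32.

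Among the partners of poly(A)-binding protein, Pan3, a subunit of a deadenylase, was the highest of 25 at 50.5 in PBS, and Paip2 was 4.02 times that level. Pan3 differed from PBS by -0.26 ± 0.34 in OSCA-40 (SE, limma adjusted p = 0.713) and by -0.21 ± 0.34 in OSCA-32 (SE, limma adjusted p = 0.906). Skiv2l, the helicase of the SKI complex, was the highest of 5 genes listed with Focad, at 17.5 in PBS against 974.5 for Focad. It differed from PBS by -1.37 ± 0.52 in OSCA-40 (SE, limma adjusted p = 0.192) and by -0.44 ± 0.52 in OSCA-32 (SE, limma adjusted p = 0.848). Eef2k, the kinase of elongation factor 2, was the highest of 5 other alpha-kinases, at 14.5 in PBS against 96.5 for Alpk2. Fam81b, the only paralogue listed with Fam81a, had a mean of 4 in PBS and was too low to test.

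Over these lists, 44 of 109 genes in the table passed the filter on low values. In OSCA-40 against PBS, limma called 1 of the 44 (Ndufs7, lower), beside 547 called of all 7872 genes (6.95%). In OSCA-32 against PBS, limma called 0 of the 44, beside 88 called of all 7872 genes (1.12%). The unadjusted limma p was under 0.05 for 10 of the 44 in OSCA-40 and for 2 in OSCA-32. How many of all genes had such an unadjusted p was not counted, so these 2 counts have no background to be set against. The median difference over the 44 genes was -0.04 in OSCA-40 and 0.03 in OSCA-32. With the values as deposited, 38 of the 44 were called in OSCA-40, as were 6695 of all genes, and 5 in OSCA-32, as were 1294 of all genes.

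**Figure D4:**
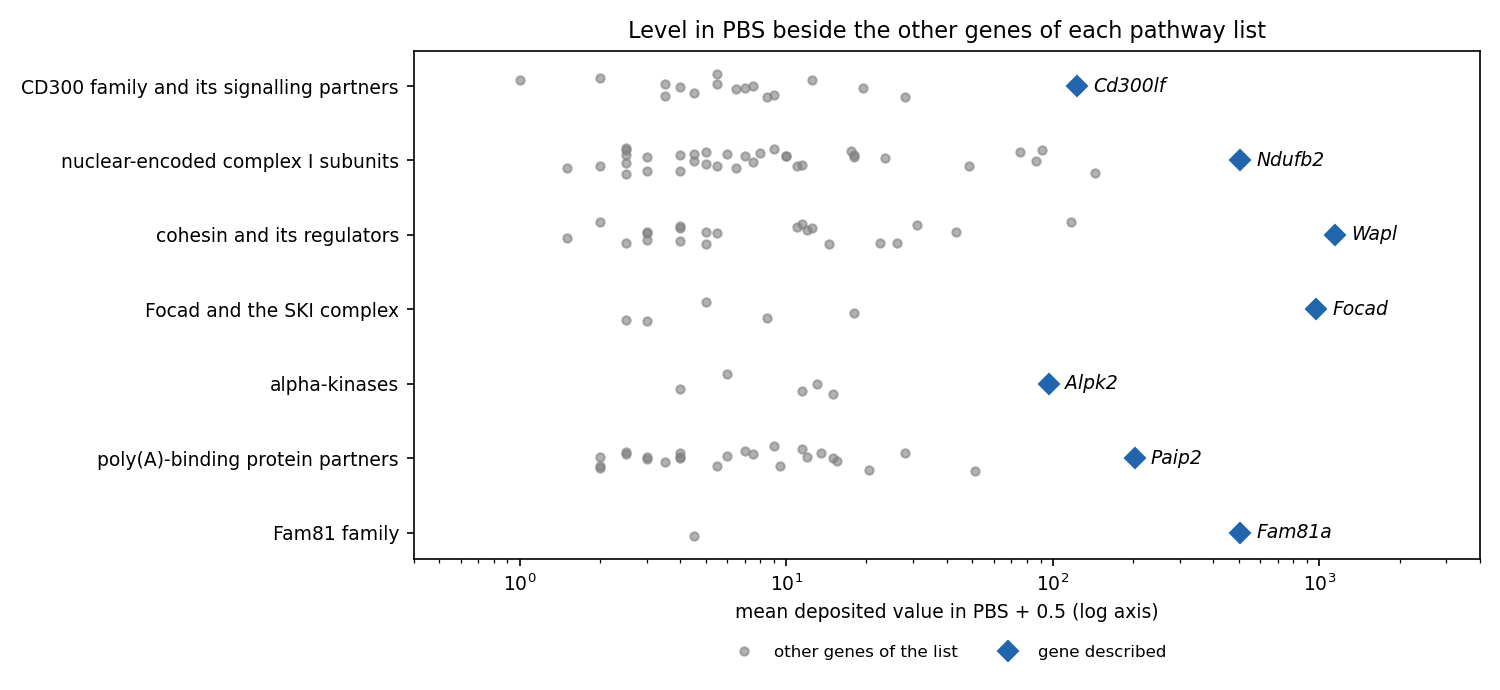
Mean deposited value in the 2 PBS libraries plus 0.5 (horizontal log axis) of each of the 7 genes (diamonds) and of the other genes of its pathway list (grey points, spread vertically for visibility). The genes drawn as diamonds were chosen for a high control level; each lies to the right of every grey point of its list, from 3.50 times the highest for Ndufb2 to 126 times for Fam81a.

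The exon shared by Wapl-206 and Focad-206 was then searched for in all GENCODE M21 transcripts, taking matches to the Wapl-206 exon of at least 90% identity over at least 100 bases. It was found in transcripts of 11 of 55450 genes (0.0198%). Besides Wapl and Focad these include Reg2, a secreted lectin of the pancreas and gut, which matched at 98.1% identity over 162 bases on the opposite strand. Focad matched at 95.3% over 148 bases on the same strand. The olfactory receptor gene Olfr46 also matched but, with values of 1 to 3, was too low to test. Reg2 was found by sequence alone, but the search was made after the values of Wapl and Focad were known.

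As deposited, Reg2 showed the same order of groups as Wapl and Focad, with smaller differences. The order of OSCA-40, OSCA-32 and PBS was also that of the median mouse gene as deposited, at -1.51 and -0.55 against PBS. That order alone thus sets Reg2 apart from few genes. It had deposited values of 524 and 545 in OSCA-40, 1339 and 1308 in OSCA-32, 2542 and 2588 in PBS and 2001 and 1908 at week 0, and ranked 35th among mouse genes in PBS. Scaled, its OSCA-32 and week 0 libraries overlapped. Scaled, it held 66.5% of the PBS level in OSCA-40, a fall of -0.59 ± 0.07 (SE, limma adjusted p = 0.00291), and 77.8% in OSCA-32, a difference of -0.36 ± 0.07 (SE, limma adjusted p = 0.0804), which passed with genes under a mean of 50 left out (limma adjusted p = 0.00642) and as deposited (0.000232). The OSCA-40 call of Reg2 was lost with no variance trend (limma adjusted p = 0.106) and kept in all other alternatives run. In OSCA-40 against OSCA-32, Reg2 differed by -0.23 ± 0.07 (SE, limma adjusted p = 0.166) and did not pass. It passed there in 4 of 19 alternatives, among them the filter at a mean of 50 (limma adjusted p = 0.0246) and the share of the mouse total (0.0256).

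Week 0 stood below PBS in Wapl, Focad and Reg2, at 62.5% of PBS for Wapl, 74.9% for Focad and 79.1% for Reg2. In PBS against week 0, Reg2 differed by 0.34 ± 0.07 (SE, limma adjusted p = 0.366) and did not pass, except with genes under a mean of 50 left out (limma adjusted p = 0.0434). The table gives values per gene and not per transcript, so whether the reads behind these 3 genes lie in the shared exon was not tested.

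**Figure D5:**
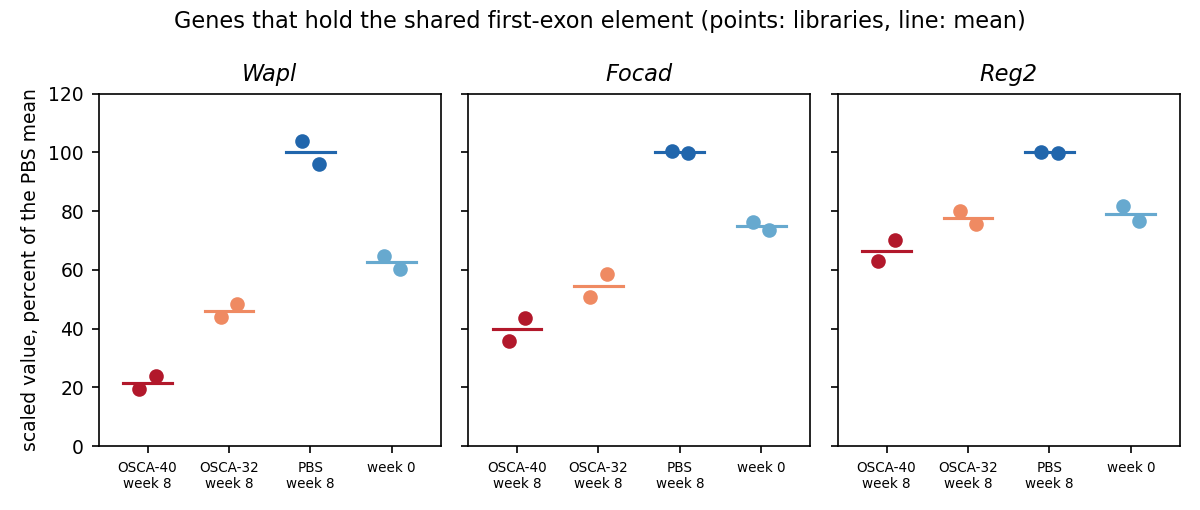
Scaled value as a percent of the PBS mean (vertical axis, from 0) in each library for Wapl, Focad and Reg2, which have a transcript that holds the shared exon; points are libraries and lines are means of 2. In each gene OSCA-40 is lowest (21.6% for Wapl, 39.7% for Focad and 66.5% for Reg2) and PBS is highest.

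The members had little sequence in common. Of the 31-base words of their transcripts, Wapl and Focad shared 10, all from the run of 40 bases in the shared exon. Cd300lf and Fam81a shared 12, Focad and Fam81a shared 4, and the other 18 pairs shared 0. The share of a member's words found in any other gene ran from 1.69% in Fam81a and 1.84% in Wapl to 18.3% in Alpk2, with a median of 4.66%. The median over 7638 tested mouse genes was 2.99%, and 42.7% of them lay above the members' median. Reg2, with 2542 and 2588 in PBS, shared 64 words with Wapl. Hacd4, which overlaps Focad on the opposite strand, shared 663 words with it and had values of 3 to 9. The paralogue Cd300ld shared 133 words with Cd300lf and had values of 1 to 7, and Braf, which overlaps Ndufb2 on the opposite strand, shared 116 and had values of 0 to 11. Such sharing leaves part of a gene's value uncertain, since the counting may have split reads between genes.

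Genes beside the members on the chromosome were not chosen for their level, so their lower values are a description. The nearest listed neighbours and the overlapping genes had values between 0 and 20 in all 8 libraries. Rab37, which overlaps Cd300lf on the opposite strand and encodes a GTPase of secretory granules, had deposited values of 5 and 5 in OSCA-40, 12 and 11 in OSCA-32, 12 and 12 in PBS and 12 and 12 at week 0. Its scaled difference from PBS was 0.37 in OSCA-40 (limma adjusted p = 0.364) and 0.48 in OSCA-32 (limma adjusted p = 0.487). Matr3, which lies 4782 bases from Paip2, differed by -0.73 in OSCA-40 (limma adjusted p = 0.288) and by -0.41 in OSCA-32 (limma adjusted p = 0.77). Of the neighbours tested, Grid1 beside Wapl came closest to the threshold in OSCA-40, where its difference was 0.86 (limma adjusted p = 0.0842).

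Genes whose scaled profile was most like that of the members were mostly of low level. Among 1689 tested mouse genes whose group means span at least 1 on the log2 scale, the correlation with the members' mean profile over 8 libraries was highest for Mta3, a subunit of a chromatin remodelling complex (Pearson r = 0.98). Next came Gm5941 (r = 0.98), Xndc1 (r = 0.97), Gm14298 (r = 0.96) and Gm44060 (r = 0.96). Mta3 had deposited values of 2 and 2 in OSCA-40, 6 and 6 in OSCA-32, 17 and 16 in PBS and 12 and 15 at week 0. Gm44060, the most abundant of these, had 7 and 8 in OSCA-40, 91 and 73 in OSCA-32, 623 and 443 in PBS and 401 and 361 at week 0. Gm14298 was listed at 0 in all OSCA-40 and OSCA-32 libraries, with 19 and 14 in PBS and 6 and 12 at week 0. For Cd300lf the most similar were Xndc1 (r = 0.98), Gm14298 (r = 0.98) and Fiz1 (r = 0.95), and for Ndufb2 they were Gm14298 (r = 0.98), Xndc1 (r = 0.97) and Gm5941 (r = 0.96). The libraries fall into groups, so these correlations mainly reflect the group means.

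Markers of cell types that shed RNA into serum were read beside the members. For myeloid cells, where Cd300lf is normally found, the summed deposited value of 17 markers was 68 to 75 in OSCA-40, 150 to 155 in OSCA-32, 245 to 268 in PBS and 226 to 243 at week 0. In OSCA-40, Csf1r, Cd68 and S100a9 were listed at 0 in both libraries. These markers lay near the floor in PBS too, at 2 and 3 for Csf1r, 4 and 3 for Cd68 and 0 and 6 for S100a9. S100a9 was also at 0 in both OSCA-32 libraries. Cxcr2, the chemokine receptor of neutrophils and the highest marker of the list, had 41 and 35 in OSCA-40, 83 and 95 in OSCA-32, 139 and 158 in PBS and 127 and 126 at week 0. Of the 5 myeloid markers tested none passed against PBS, and their median scaled difference was 0.01 in OSCA-40 and 0.01 in OSCA-32, beside -3.13 and -3.12 for Cd300lf.

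The summed value of 14 vesicle components was 59 to 62 in OSCA-40, 187 to 192 in OSCA-32, 299 to 325 in PBS and 309 to 364 at week 0. Much of the PBS sum was Cd9, a tetraspanin that marks exosomes, with 208 and 192 in PBS and 29 and 26 in OSCA-40. Of 7 vesicle components tested, 1 was lower in OSCA-40 than in PBS, beside 175 of all 7872 genes (2.22%), and none passed in OSCA-32. That 1 was Cd9, with a scaled log2 difference of -1.18 ± 0.10 (SE, limma adjusted p = 0.000757). The median scaled difference of the 7 was -0.06 in OSCA-40 and -0.25 in OSCA-32. Of 11 platelet markers 4 were tested. After scaling, 3 of the 4 were higher in OSCA-40 than in PBS, beside 372 of all 7872 genes (4.73%), with Pf4, the platelet chemokine, at 2.78 ± 0.25 (SE, limma adjusted p = 0.000813). The fourth, the platelet integrin Itga2b, differed by 0.36 ± 0.31 (SE, limma adjusted p = 0.555). Most untested markers were lower as deposited, such as Itgb3, with 3 and 3 in OSCA-40 and 8 and 9 in PBS. Treml1 was about level, with 5 and 5 in OSCA-40 and 6 and 5 in PBS. Clec1b was higher, with 4 and 5 in OSCA-40 and 2 and 3 in PBS. The median mouse gene was also lower as deposited, by -1.51. In OSCA-32, 1 of the 4, the actin-binding peptide Tmsb4x, was higher than in PBS, beside 74 of all genes (0.94%). Pf4 (limma adjusted p = 0.179), Ppbp (limma adjusted p = 0.18) and Itga2b (limma adjusted p = 0.932) did not pass there. After scaling, 1 of 8 erythroid markers tested (Hba-a2) and 2 of 4 hepatocyte markers tested (Alb and Trf) were higher in OSCA-40 than in PBS, against the same 4.73% of all genes. As deposited, the globin gene Hba-a2 had 194 and 196 in OSCA-40 and 184 and 189 in PBS, so that the size of its difference rests on the scaling. Trf, which encodes transferrin, had 13 and 11 in OSCA-40 and 21 and 22 in PBS as deposited. It was thus lower before scaling and higher after it, so that even its direction rests on the scaling. The part of these shifts in the members' values was not tested.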

How the data were processed

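The deposited table gives, per the file headers, 1 value per gene and library. Tools listed in the submitters' processing notes are kallisto 0.43.0, Trimmomatic 0.33.0 and FastQC 0.11.5, with builds CanFam3.1 (dog) and GRCm38.p5 (mouse). Per the labels' protocols, vesicles were enriched with ExoQuick and RNA was taken with a SeraMir kit. Not given in the sources used here are the index, annotation and filters. The deposited values are whole numbers treated as a score, since each library sums to between 977106 and 989183 whatever its content. They keep no depth, so precision rests on the spread between libraries.

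Genes at 10 or more in at least 2 libraries were kept (7655 mouse, 217 canine). Scaling used the trimmed mean of log ratios over mouse genes, trimming 30% of ratios and 5% of levels. Limma 3.58.1 (R 4.3.3), with a variance trend, was fitted to log2(scaled value + 1) in all 8 libraries with 4 residual degrees of freedom. The pseudocount understates changes of low genes. P-values are two-sided and Benjamini-Hochberg adjusted over all genes within a comparison. The script was tested on simulated data, in which all groups had the same base level of mouse genes. That test thus does not cover the fall of the mouse share seen here. Gene positions and transcripts come from GENCODE M21, to which 31171 of 31300 mouse IDs matched; exons were searched with BLAST 2.17.0. Not all genes found by that search are reported here.

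The members, lists and tests were chosen with earlier results of these data known. Genes named are the members, list genes past the threshold or highest in level, the nearest neighbours and the genes most correlated with the members; exceptions are stated. Alternatives covered scaling, filters, pseudocounts, the variance trend, the libraries fitted, a replicate block and each library left out.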

Additional observations from a re-analysis of the deposited data

Results flagged for a closer look

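Paip2 and Wapl stood out because their fall against PBS differed between the 2 tumour lines by a test of the difference itself. Paip2 was at 37.5 scaled in OSCA-40 and 97.3 in OSCA-32, a log2 difference of -1.37 (limma adjusted p = 0.00717), with both OSCA-40 libraries below both OSCA-32 libraries. Wapl was at 166 scaled in OSCA-40 and 354 in OSCA-32, a log2 difference of -1.09 (limma adjusted p = 0.00461), again with both OSCA-40 libraries lower. How many of all genes separate the lines in this way was not counted. As given above, the Paip2 call was lost without either OSCA-32 library and the Wapl call with no variance trend. The deposited OSCA-40 values of Paip2 were only 15 and 20. Without any scaling, the median mouse gene also differed between the lines, by -0.95. The lines also differ in the mouse share of the library, at 31.6% and 29.3% in OSCA-40 and 55.3% and 56.7% in OSCA-32, and the part of that in these values was not tested.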

How the results depend on the processing

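With 2 libraries per group, few residual degrees of freedom and no depth, small differences could not be resolved. Of the members, 2 were called in OSCA-40 against OSCA-32. That count was 7 as deposited, 4 as a share of the mouse total, 4 with a mean of at least 50, 1 with no variance trend and 1 to 3 with a library left out. In PBS against week 0 it was 0, and 2 with a mean of at least 50. Of the pathway genes, 1 was called in OSCA-40 against PBS; that count was 38 as deposited, 2 with a pseudocount of 4, 2 with only the groups compared, 0 with no variance trend and 0 to 2 with a library left out. In OSCA-32 against PBS it was 0, and 5 as deposited. The replicate numbers did not pair the samples (correlations of same-numbered libraries between -0.0564 and 0.00506). With the replicate block the pathway count in OSCA-40 was 0 and the members called in OSCA-40 against OSCA-32 stayed at 2. In OSCA-40 against OSCA-32 the difference of Fam81a (0.09) turned to -0.98 as deposited, -0.11 as a share of the mouse total, -0.0935 with no filter and -0.0045 without OSCA-40 replicate 2, and ran up to 0.192 with a library left out. That of Cd300lf (-0.00) ran from -0.0594 to 0.0508 with a library left out, and was positive without OSCA-32 replicate 2 and without OSCA-40 replicate 1. Genes called ran from 285 to 6695 in OSCA-40 against PBS (547 as reported, 2092 with no filter), 37 to 1294 in OSCA-32 against PBS (88 as reported), 61 to 4617 in OSCA-40 against OSCA-32 (215 as reported) and 2 to 24 in PBS against week 0 (13 as reported). The values as deposited gave the highest count in each of the first 3 of these comparisons. The cause was not tested.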
